A study of Mus musculus with 9 samples.

Results

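The genes described here are 8 transcription factor genes, Foxo1, Foxo3, Foxp1, Satb1, Ets1, Tcf7, Lef1 and Myb, taken by name from the 24346 genes with a value, and all 8 had one. The rule was their names alone, but the set was proposed with earlier results of these data known. RNA-seq had been performed on sorted splenic B cells of wild-type C57BL6 mice, with 3 libraries in each of 3 groups. Follicular (FO) B cells had been taken both at 8 weeks of age (young FO B cells) and at 50 weeks (aged FO B cells), and age-associated B cells (ABCs) at 50 weeks. No group carried a transgene, a deletion or a treatment. The gate for FO B cells included B220hi, CD43-, CD23+ and CD21lo, and that for ABCs included B220hi, CD43-, CD23-, CD21lo and cells positive for both CD11b and CD11c. The study describes 3 mice per group, but the labels do not state whether a library of ABCs and one of FO B cells came from the same mouse, and the p-values measure the spread between these libraries.

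Mature lymphocytes that have not met antigen are kept out of the cell cycle in part by forkhead factors. Foxo1 and Foxo3 are retained in the cytoplasm after phosphorylation by Akt and otherwise act in the nucleus, where Foxo1 maintains genes of homing and survival, and Foxp1 shares the forkhead domain and is known for the quiescence of naive T cells. Satb1 is an organizer of chromatin in lymphocytes, and Ets1 is known to restrain the differentiation of B cells into plasma cells. Tcf7 (TCF-1) and Lef1 are paired HMG-box factors, best known in T cells, that bind the same DNA motif and can recruit beta-catenin at the end of the Wnt pathway, whereas Myb is a factor of hematopoietic progenitors and proliferating cells.

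The 8 genes are annotated as protein-coding in GENCODE M21 on GRCm38. Foxo1 lies at chr3:52268336-52353221 on the plus strand, Lef1 at chr3:131110471-131224356 on the plus strand and Ets1 at chr9:32636221-32757820 on the plus strand. On the minus strand lie Foxo3 at chr10:42181841-42276755, Myb at chr10:21124935-21160984, Foxp1 at chr6:98925338-99522721, Satb1 at chr17:51736187-51833290 and Tcf7 at chr11:52252371-52283014. The annotation places other genes over 7 of the 8, on the opposite strand for 6 of them, and the library kit did not keep the strand of the RNA, so reads of such partners could not be told apart from those of the 8 genes.

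Among the 8 genes, Satb1, Lef1 and Tcf7 showed the largest ratios between ABCs and FO B cells, and for Satb1 and Lef1, which were both lower in ABCs, the 250 bases before the first RefSeq start (GRCm38.p6, 5′ to 3′ on the strand of the gene) are given so that they can be compared. None of the printed bases lies in an exon of the gene in GENCODE M21. Capitals would mark a match to a forkhead core (GTAAACA), a TCF/LEF core (CTTTGAT), an ETS core (CCGGAAG) or a MYB core (TAACGG), searched on both strands, and no core holds another. The windows are Satb1 at chr17:51833291-51833540 (minus strand) and Lef1 at chr3:131110047-131110296 (plus strand).
Satb1: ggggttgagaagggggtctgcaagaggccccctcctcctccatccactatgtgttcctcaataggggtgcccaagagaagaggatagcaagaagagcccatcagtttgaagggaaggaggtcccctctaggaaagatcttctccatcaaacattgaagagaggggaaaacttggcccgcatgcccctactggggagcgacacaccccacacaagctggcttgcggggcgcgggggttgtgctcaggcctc
Lef1: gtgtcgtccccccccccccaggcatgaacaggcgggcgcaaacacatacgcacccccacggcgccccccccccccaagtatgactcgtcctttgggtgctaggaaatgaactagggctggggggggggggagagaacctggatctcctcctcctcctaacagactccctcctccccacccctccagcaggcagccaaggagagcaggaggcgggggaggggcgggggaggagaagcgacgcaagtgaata

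Both printed stretches hold no match, so no base is in capitals. GC content over the printed bases was 58% for Satb1 and 66.4% for Lef1. RefSeq windows of 250 bases before and 50 after a start were found for 7 of the 8 genes, with Ets1 as the exception, and 5 of their 17 windows held a match. Counted from the start, these were a MYB core in the only window of Foxo1 at base -170, a MYB core shared by a pair of overlapping Satb1 windows, an ETS core at -25 and a forkhead core at 2 in the second window of Tcf7, and a forkhead core at 34 in the window of Myb. Of all 32851 windows, 3.65% held the forkhead core, 3.73% the TCF/LEF core, 8.86% the ETS core and 2.76% the MYB core.

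Values are FPKM, reads scaled for the length of the transcript and for the size of the library, so that levels can be set side by side between genes. About 7280000 to 8850000 reads per library were implied by the steps that single reads leave in FPKM, and 10032 to 10445 genes had at least 1 FPKM in a library. The former is the number of mapped reads only if libraries were not scaled to each other, which is not stated. The labelled cell types were checked against the genes of the sort. Fcer2a, which encodes CD23, had 714 ± 15.7 FPKM in aged FO B cells and 3.86 ± 3.25 in ABCs, whereas Itgax, which encodes CD11c, had 0.115 ± 0.0873 and 50.7 ± 7.90 (SD, n = 3 each).

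Ets1 had the highest level of the 8 genes in every group. In young FO B cells the order by mean FPKM was Ets1, Foxp1, Foxo1, Satb1, Lef1, Myb, Foxo3 and Tcf7, and only the neighbours Foxo3 and Tcf7 overlapped between libraries. The order was the same in aged FO B cells, where the ranges of Lef1 and Myb and those of Myb and Foxo3 overlapped. In ABCs the order was Ets1, Foxp1, Foxo1, Tcf7, Myb, Satb1, Foxo3 and Lef1, in which Foxp1 overlapped Foxo1, Tcf7 overlapped Myb and Myb overlapped Satb1.

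**Figure D1:**
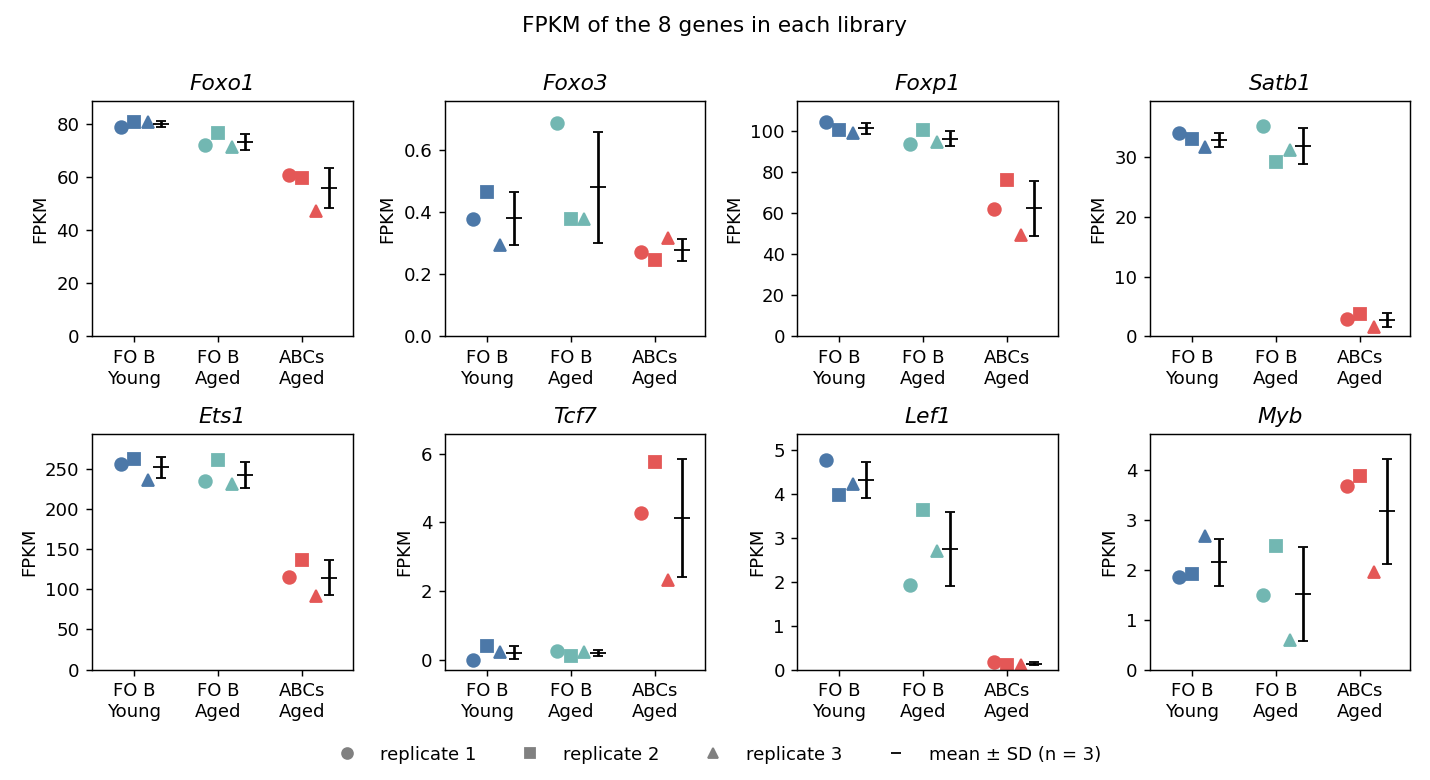
FPKM of each of the 8 genes (1 panel per gene, linear axis of its own) in the 3 libraries of young and aged FO B cells and in ABCs. Points are libraries, shaped by replicate number, and bars are mean ± SD (n = 3). ABCs sit below every FO B library for Foxo1, Foxp1, Satb1, Ets1 and Lef1 and above every one for Tcf7.

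The question of the main comparison was how ABCs differ in expression from FO B cells of the same age. Satb1, Ets1 and Lef1 were downregulated and Tcf7 was upregulated in ABCs against aged FO B cells, by 11.7-fold, 2.12-fold, 20.8-fold and 21.9-fold of mean FPKM. Foxp1 and Foxo1 were 35.2% and 23.8% below the aged FO B mean without passing the threshold, and Myb and Foxo3, both of low level, did not pass or were not tested. Genes were called at a Benjamini-Hochberg FDR under 0.01 in limma on log2(FPKM + 1), among the 10412 genes that averaged 1 FPKM or more. Of the 7 genes of the group that were tested, 3 were called lower, where 7.86% of all tested genes were, and 1 was called higher, where 12.0% were. Tcf7 and Lef1 passed the filter on low values only through the group in which they were high, so that they had to differ once tested. Adding 1 before the log2 makes the fitted fold change of low genes smaller than that of their FPKM, and in such bulk samples fewer expressing cells and less RNA per cell cannot be told apart.

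Foxo1 had 79.0, 80.8 and 81.1 FPKM in young FO B cells, 72.1, 76.9 and 71.3 in aged FO B cells and 61.1, 59.8 and 47.1 in ABCs. The 3 groups did not overlap and stood in this order, with the third ABC library lowest. Against aged FO B cells, the log2 fold change in ABCs was -0.39 ± 0.11 (SE, 95% interval -0.65 to -0.14), at a limma FDR of 0.026. An exact permutation test on the group means (two-sided, as all such tests here) gave p = 0.1, the smallest that 3 against 3 libraries allow.

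Foxp1 had 104, 100.1 and 98.9 FPKM in young FO B cells, 93.6, 100.3 and 94.2 in aged FO B cells and 61.8, 75.8 and 49.1 in ABCs. Every ABC library lay below every FO B library, while the FO B groups overlapped. The log2 fold change in ABCs against aged FO B cells was -0.64 ± 0.15 (SE, 95% interval -0.98 to -0.30), with a limma FDR of 0.0132. Without the second or without the third ABC library the gene passed, at a limma FDR of 0.00355 and 0.00743.

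Foxo3, the paralog of Foxo1, was present at 0.378, 0.467 and 0.296 FPKM in young FO B cells, 0.688, 0.377 and 0.378 in aged FO B cells and 0.273, 0.247 and 0.316 in ABCs. These values correspond to 27, 34 and 19 reads summed over each group, or more if the value of 1 read was overestimated. The rate in ABCs was 0.589 times that in aged FO B cells, with a 95% interval of 0.317 to 1.06 for counting error only. This interval includes equal rates, so that the summed reads did not resolve a difference at this depth. Each ABC library lay below each aged FO B library, with an exact permutation p of 0.1, and the ABC and young FO B libraries overlapped. The gene was below the filter in all 3 comparisons, and without a filter limma gave an FDR of 0.225 for ABCs against aged FO B cells.

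Satb1 had 34.0, 33.0 and 31.8 FPKM in young FO B cells, 35.2, 29.3 and 31.3 in aged FO B cells and 2.94, 3.70 and 1.52 in ABCs. All 6 FO B libraries lay near one level, and the ABC libraries lay far below it. The mean fell from 31.9 ± 3.02 to 2.72 ± 1.10 FPKM (SD, n = 3 each), a log2 fold change of -3.19 ± 0.22 (SE) with a limma FDR of 0.000107. The exact permutation test on the group means gave p = 0.1, its smallest value here.

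Ets1 had 256, 262 and 237 FPKM in young FO B cells, 235, 261 and 231 in aged FO B cells and 116, 136 and 91.9 in ABCs. The FO B groups overlapped, and the ABC libraries stood apart below them. In ABCs against aged FO B cells the log2 fold change was -1.09 ± 0.14 (SE, limma FDR 0.00116). Even so, Ets1 remained the gene with the highest level of the 8 in ABCs.

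Ratios within a library do not depend on how libraries are scaled. The ratio of Ets1 to Foxo1 was 3.30 ± 0.083 in aged FO B cells and 2.04 ± 0.204 in ABCs, and that of Satb1 to Foxo1 was 0.436 and 0.0474 (n = 3 each). Neither ratio overlapped between the groups, with an exact permutation p of 0.1 for both. The decreases of Ets1 and Satb1 thus differed in size from that of Foxo1 in these libraries. The ratio of Ets1 to Foxo1 was 3.14 ± 0.189 (SD) in young FO B cells. It did not overlap that of aged FO B cells either, with an exact permutation p of 0.1, so a smaller difference reached the same p.

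Tcf7 was close to absent from FO B cells. It had 0, 0.393 and 0.223 FPKM in young FO B cells, 0.243, 0.0997 and 0.222 in aged FO B cells and 4.27, 5.77 and 2.33 in ABCs. Each ABC library exceeded every FO B library, and the third was the lowest of the 3. Recovered reads of Tcf7 were 0, 7 and 4 in young FO B cells, 4, 2 and 4 in aged FO B cells and 71, 106 and 39 in ABCs. The read rate in ABCs was 22.8 times that in aged FO B cells (95% interval 12.1 to 48.1, for counting error only). The log2 fold change was 2.05 ± 0.27 (SE) with a limma FDR of 0.0013, and 0.00397 with no filter. With 0.1 in place of 1 added to FPKM, the log2 fold change was 3.82.

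Lef1, the partner factor of Tcf7, showed the opposite difference. It had 4.76, 3.97 and 4.21 FPKM in young FO B cells, 1.93, 3.62 and 2.69 in aged FO B cells and 0.175, 0.105 and 0.115 in ABCs. The 3 groups did not overlap, with young FO B cells highest and ABCs lowest. The ABC values came from 3, 2 and 2 reads, and the level was 21.4-fold below that of aged FO B cells in read equivalents, with a 95% counting interval of 10.2 to 54.1. The log2 fold change was -1.70 ± 0.21 (SE) with a limma FDR of 0.000983, and 0.00207 with no filter. It was -3.59 with 0.1 added.

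The ratio of Tcf7 to Lef1 within a library was 0.126, 0.0276 and 0.0824 in aged FO B cells and 24.5, 54.8 and 20.1 in ABCs. Lef1 thus exceeded Tcf7 in each of the 3 aged FO B libraries, and Tcf7 exceeded Lef1 in each of the 3 ABC libraries, with an exact permutation p of 0.1 for the ratio. In young FO B cells the ratio averaged 0.0507 ± 0.0495 (SD, n = 3).

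**Figure D2:**
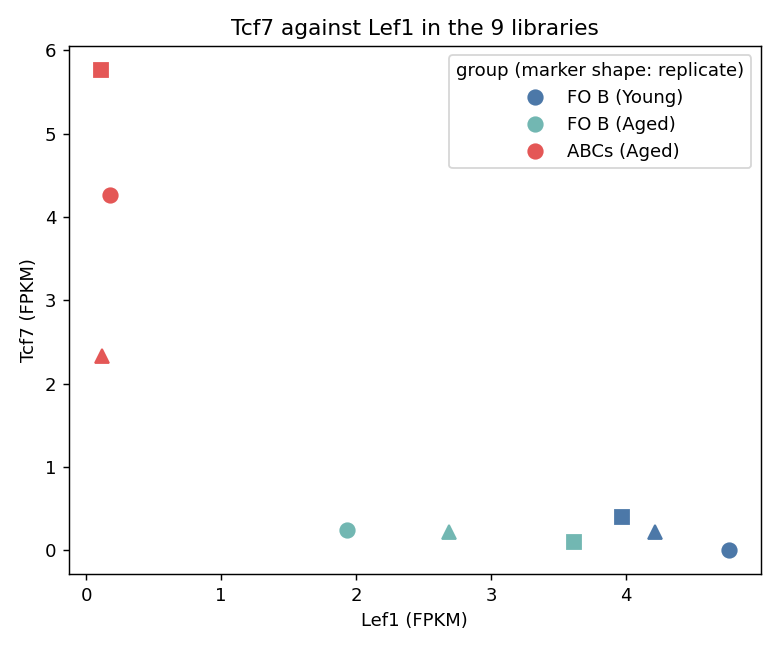
Tcf7 (vertical, FPKM) against Lef1 (horizontal, FPKM) in the 9 libraries, coloured by group and shaped by replicate number. The 3 ABC libraries lie at 2.33 to 5.77 FPKM of Tcf7 and under 1 FPKM of Lef1, and the 6 FO B libraries lie along the horizontal axis.

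Since Tcf7 is best known in T cells, markers of other cell types were read beside it. The 15 T cell markers summed to 2.08 to 3.33 FPKM in aged FO B libraries and to 13.4, 42.7 and 8.23 in the ABC libraries, in the same order as Tcf7. Cd3g, which encodes the gamma chain of CD3, made up most of this sum with 9.63, 37.0 and 4.93 FPKM in ABCs, and Cd5, also found on some B cells, averaged 1.98. The other 13 markers were below 1 FPKM on average in ABCs, with Cd3e at 0.0332, Cd4 at 0.014, Cd8a at 0.014 and Thy1 at 0 in every ABC library. The 8 NK cell markers summed to 24.6 to 38.0 FPKM in ABCs and 0.642 to 1.01 in aged FO B cells, of which Prf1 gave 29.2 in ABCs, while Ncr1 was at 0.0294 and Klre1 at 0. The part of the T and NK markers in the Tcf7 values was not tested beyond these levels.

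Plasma cell, macrophage and transitional marker sums moved with all the differences between ABCs and FO B cells, whereas the B lineage sums overlapped. The 7 plasma cell markers, all with reads in ABCs, summed to 976 to 1275 FPKM in ABCs and 444 to 471 in aged FO B cells. Mzb1 led them and made up most of the difference, with means of 944 in ABCs and 316 in aged FO B cells. Also higher in ABCs were the means of Jchain (38.2 and 5.93), Sdc1 (15.8 and 3.11) and Prdm1 (4.46 and 0.378). The same held for Xbp1 (134 and 114) and Tnfrsf17 (0.204 and 0.137), and only Irf4 was lower (15.6 and 17.3). The 10 macrophage and monocyte markers summed to 199 to 240 against 11.4 to 18.6, most of it from Adgre1 with 198 FPKM in ABCs, while Csf1r was at 0.520. The 8 markers of transitional B cells, a list that includes Myb, summed to 351 to 486 FPKM in ABCs and to 1000 to 1146 in aged FO B cells, with Rag2 at 0 in aged FO B cells. This difference came mostly from Vpreb3, with means of 87.8 and 420, and Cd24a, with 75.0 and 364, whereas the mean of Myb was higher in ABCs. All 9 B lineage markers had at least 1 FPKM in each group, and their sum ranged from 8150 to 10374 FPKM in ABCs and from 9132 to 9572 in aged FO B cells. The third ABC library had the lowest B lineage sum and the lowest value of its group in 6 of the 8 genes. The part of these markers in the results was not tested.

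Myb had 1.86, 1.91 and 2.69 FPKM in young FO B cells, 1.495, 2.49 and 0.595 in aged FO B cells and 3.69, 3.88 and 1.96 in ABCs. A pair of ABC libraries lay above all FO B libraries, and the third lay among them. The log2 fold change in ABCs against aged FO B cells was 0.76 ± 0.32 (SE, 95% interval 0.0013 to 1.52), with a limma FDR of 0.107 and an exact permutation p of 0.2. It was 1.145 with 0.1 added and 0.466 without the third aged FO B library. The 14 cell cycle genes summed to 307, 312 and 348 FPKM in the ABC libraries and to 239 to 244 in aged FO B cells. Their sum was highest in the third ABC library, where Myb was lowest. Pcna led the list, with means of 103 in ABCs and 97.3 in aged FO B cells. Ccnd3 (69.0 and 46.0), Ccnd2 (36.4 and 24.9), Ccne1 (19.7 and 7.19), Birc5 (10.6 and 3.36) and Mki67 (2.41 and 0.505) were also higher in ABCs. Only Mcm2 (21.4 and 21.6) and Mcm5 (18.9 and 21.4) had lower means there. The part of these genes in the values of Myb was not tested.

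The second comparison asked how FO B cells differ between young and aged mice. None of the 6 genes tested was called at a limma FDR under 0.05, where 0.346% of 10122 tested genes were called higher and 0.119% lower in aged mice. At an unadjusted p under 0.05 there were 2 of the 6 genes, Foxo1 and Lef1, and 12.8% of all tested genes. Lef1 averaged 4.32 ± 0.407 FPKM in young and 2.75 ± 0.846 in aged mice (SD, n = 3 each), with no overlap between the libraries. Its log2 fold change was -0.53 ± 0.18 (SE, 95% interval -0.93 to -0.12), with a limma FDR of 0.256 and an exact permutation p of 0.1. Foxo1 averaged 80.3 ± 1.10 and 73.4 ± 3.01 FPKM, again without overlap, with a log2 fold change of -0.13 ± 0.05 (SE) and a limma FDR of 0.375.

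The other tested genes were further from the threshold. The limma FDR was 0.619 for Foxp1, 0.607 for Myb, 0.798 for Ets1 and 0.856 for Satb1. The mean of Satb1 was 32.9 ± 1.15 FPKM in young and 31.9 ± 3.02 in aged mice (SD, n = 3 each). Foxo3 and Tcf7 were below the filter.

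Against young FO B cells, whose comparison shares its ABC libraries with the main one, 5 of the 7 tested genes were called lower in ABCs and 1 higher. Of 10438 tested genes, 9.82% were called lower and 13.8% higher. Satb1 was 12.1-fold and Lef1 32.8-fold lower, and Tcf7 was 20.1-fold higher, with limma FDRs of 6.21e-05, 5.74e-05 and 0.00142. Lef1 and Tcf7 again passed the filter only through the group in which they were high, so that they had to differ once tested. Ets1 was called at a limma FDR of 0.000717 with a log2 fold change of -1.15 ± 0.14 (SE).

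Foxo1 and Foxp1 passed the threshold in this comparison. Foxo1 was 30.3% below young FO B cells (log2 fold change -0.52 ± 0.10, SE, limma FDR 0.00659), and Foxp1 was 38.4% below them (-0.71 ± 0.14, limma FDR 0.00722). Both calls were lost when any 1 of the 3 young FO B libraries was left out, at a limma FDR of 0.0257 to 0.0283 for Foxo1 and 0.0271 to 0.0313 for Foxp1. That of Foxo1 was also lost without the second ABC library (0.0102) and that of Foxp1 without the first (0.0238). Myb again overlapped between the groups, with a limma FDR of 0.22.

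**Figure D3:**
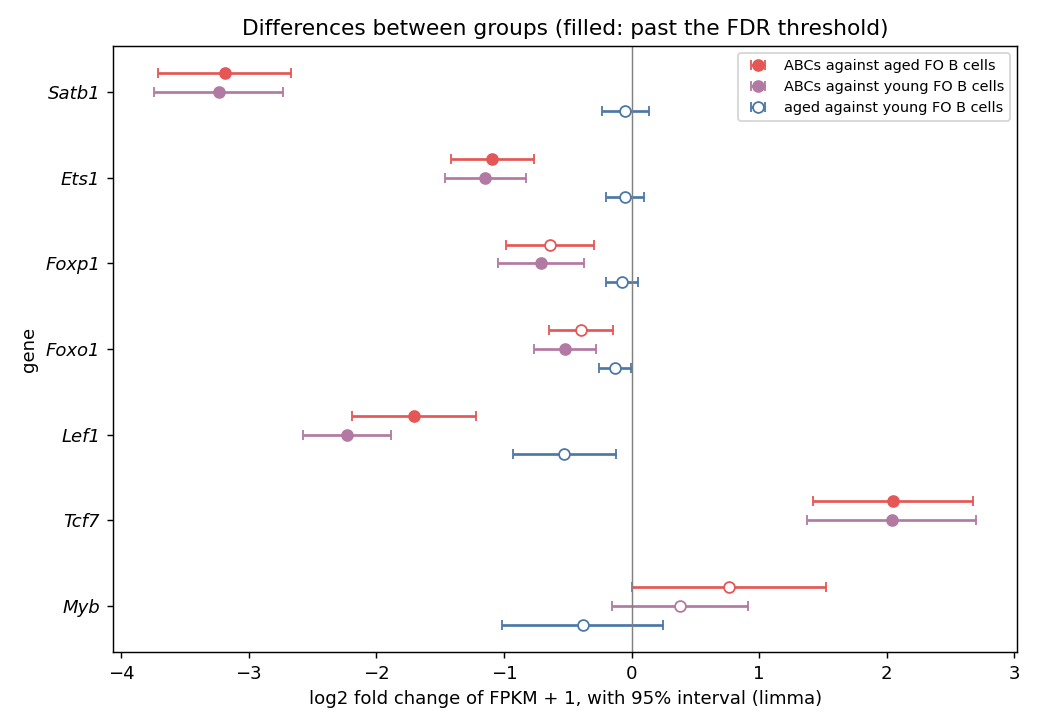
Log2 fold change of FPKM + 1 (horizontal, with 95% intervals from limma) of the tested genes in the 3 comparisons, which share libraries. Filled points passed the FDR threshold of the comparison. Satb1, Ets1, Lef1 and Tcf7 are filled in both comparisons of ABCs, Foxo1 and Foxp1 only against young FO B cells, and no gene is filled between the FO B groups.

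Among relatives of the 8 genes, 9 of 17 paralogs were tested in ABCs against aged FO B cells. Their median log2 fold change was -0.01, equal to that of all tested genes at 2 decimals. Fli1 was the only one called, where 12.0% of all tested genes were called higher and 7.86% lower. Fli1, an ETS factor of B cells and other blood cells, fell from 100.1 ± 8.74 to 50.7 ± 6.68 FPKM (SD, n = 3 each, limma FDR 0.000826).

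In the Wnt and beta-catenin pathway, which acts through Tcf7 and Lef1, 20 of 30 genes were tested. Of these, 3 were called higher and 2 lower, where 12.0% and 7.86% of all tested genes were. The median log2 fold change was -0.22. Tle1, a Groucho corepressor that binds Tcf/Lef factors, fell from 6.69 ± 0.381 to 0.399 ± 0.337 FPKM (limma FDR 0.000205), whereas its relative Tle3 rose from 6.02 ± 0.368 to 9.28 ± 0.795 (0.00725). Rnf43, a ubiquitin ligase that removes Wnt receptors, rose from 0.568 ± 0.0891 to 2.95 ± 0.827 FPKM (limma FDR 0.00256). Of the kinases that phosphorylate beta-catenin, Gsk3a fell (log2 fold change -0.66, limma FDR 0.00818) and Csnk1a1 rose (0.33, 0.00848). Tle1 passed the filter through FO B cells and Rnf43 through ABCs. The call of Gsk3a was lost under 8 of 14 alternatives, that of Csnk1a1 under 10 of 14, that of Tle3 under 9 of 14 and that of Rnf43 under 6 of 13, with limma FDRs of at most 0.0344, 0.0382, 0.032 and 0.0139. Leaving out any 1 of the 3 aged FO B libraries, or the first or second ABC library, ended each of these 4 calls.

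The kinases, phosphatases, 14-3-3 proteins and modifiers that control Foxo factors were all tested, 32 in number. They had 2 called higher and 8 lower, where 12.0% and 7.86% of all tested genes were, and a median log2 fold change of -0.09. Inpp4b, a phosphatase that limits phosphoinositide signals upstream of Akt, fell from 7.38 ± 0.652 to 1.51 ± 0.541 FPKM (limma FDR 0.000433). Among the kinases, Sgk3 fell from 15.5 ± 0.356 to 6.79 ± 1.92 FPKM (limma FDR 0.00283), while Akt2 rose from 19.8 ± 0.848 to 44.9 ± 9.60 FPKM (limma FDR 0.00148). Ywhaq, a 14-3-3 protein, rose from 175 ± 7.95 to 283 ± 24.9 FPKM (limma FDR 0.000862). The call of Sgk3 was lost without any 1 of the 3 aged FO B libraries, at a limma FDR of at most 0.0159.

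Of 27 genes listed as Foxo targets 22 were tested, with 2 called higher, 2 lower and a median log2 fold change of -0.10. Over all tested genes, 12.0% were called higher and 7.86% lower. Bcl6, the repressor required for germinal center B cells, fell from 31.2 ± 5.69 to 6.62 ± 1.39 FPKM (limma FDR 0.000229), and the stress gene Gadd45a fell by 0.52 on the log2 scale (0.00419). S1pr1, the receptor for exit into the blood, rose from 196 ± 16.6 to 271 ± 4.37 FPKM (limma FDR 0.00304). The call of Gadd45a was lost without any 1 of the aged FO B libraries or the first ABC library (limma FDR at most 0.0222), and that of S1pr1 without aged FO B library 1 or 3 or ABC library 1 or 2 (at most 0.0164).

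The 19 other quiescence genes were all tested, and again 2 were called higher and 2 lower, with a median of -0.10. The shares over all tested genes were 12.0% higher and 7.86% lower. Slfn2, known for the quiescence of T cells, fell from 391 ± 39.4 to 230 ± 18.8 FPKM (limma FDR 0.00115). Fbxw7, part of a ubiquitin ligase that degrades cyclin E and Myc, rose from 7.65 ± 0.631 to 12.2 ± 1.51 FPKM (limma FDR 0.00695). Rbl2, a retinoblastoma relative found in both lists, rose from 21.3 ± 0.693 to 28.5 ± 2.12 FPKM (limma FDR 0.00818). The calls of Fbxw7 and Rbl2 were lost when any 1 of the 6 libraries was left out, at limma FDRs of at most 0.0304 and 0.0349.

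**Figure D4:**
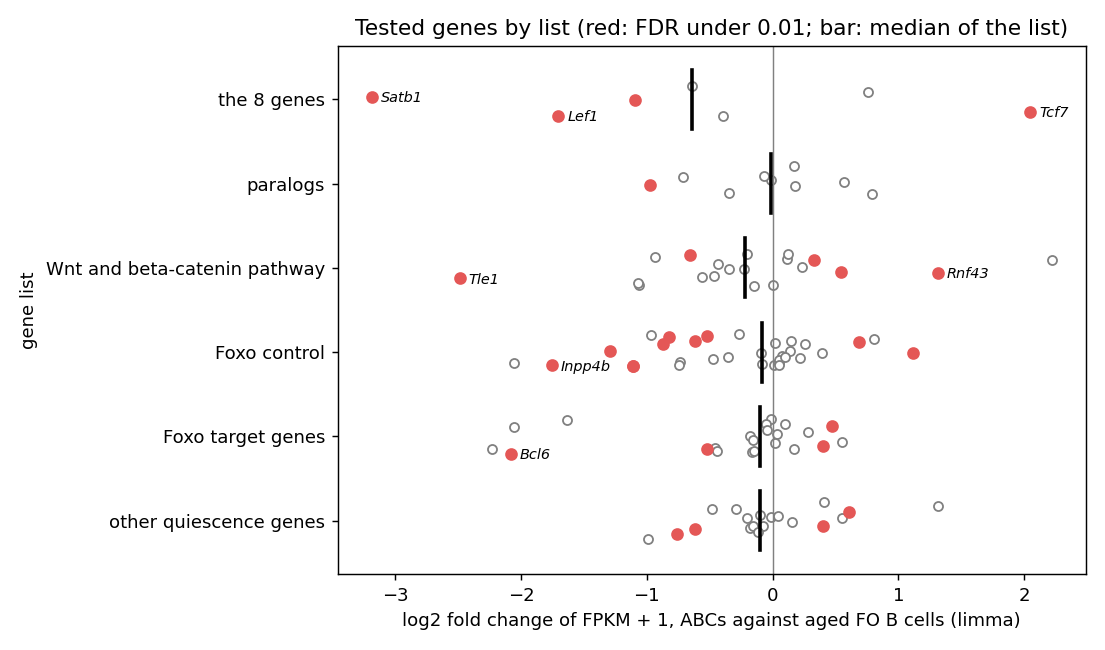
Log2 fold change of FPKM + 1 (horizontal) of each tested gene in ABCs against aged FO B cells, for the 8 genes and 5 related lists, which share some genes. Red points had a limma FDR under 0.01, those beyond 1.3 in size are named, vertical offsets carry no value, and black bars are list medians. The medians of the 5 related lists lie between -0.22 and -0.01.

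Between FO B cells of young and aged mice, no gene of these 5 lists was called, where 0.346% of all tested genes were called higher and 0.119% lower. The tests covered 9 paralogs, 19 Wnt pathway genes, 31 genes of Foxo control, 22 Foxo targets and 19 quiescence genes.

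The genes with the most similar pattern to the called genes were found by the root mean square difference of centred log2(FPKM + 1) over the 9 libraries, among 10375 genes. For Satb1 these were Dennd2d (0.14), Treml2 (0.207) and Impdh1 (0.224), against a spread of Satb1 itself of 1.53. For Ets1 they were Dpp4 (0.0758), Rara (0.0759) and Tnik (0.0768), against 0.547. Tnik had 1.53 ± 0.238 FPKM in aged FO B cells and 0.160 ± 0.186 in ABCs, so that its likeness to Ets1 holds only with 1 added to FPKM and not for the fold of FPKM. For Tcf7 they were Slc43a1 (0.137), F730043M19Rik (0.153) and Il9r (0.192), against 1.002. Il9r had 9.45 ± 0.701 FPKM in aged FO B cells and 45.8 ± 12.0 in ABCs, where Tcf7 had 0.188 and 4.12. All of them rose by a smaller fold of FPKM than Tcf7, so that this likeness too holds only with 1 added. For Lef1 they were Tsc22d1 (0.166), Oasl2 (0.232) and Mcoln3 (0.249), against 0.966. Tsc22d1 had 20.5 ± 2.34 FPKM in young FO B cells, 13.7 ± 3.55 in aged FO B cells and 2.77 ± 0.360 in ABCs. From aged FO B cells to ABCs, Tsc22d1 and Oasl2 fell by a smaller fold of FPKM than Lef1, and Mcoln3 by a larger one.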

How the data were processed

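From SMART-Seq HT cDNA, the authors obtained single-end reads (101 bases), aligned them to the mm10 build and deposited 1 FPKM value for each gene symbol in each library. The submitters' processing notes name TopHat2 2.1.1, Bowtie2 2.2.8, SAMtools 0.1.18 and Cuffdiff 2.2.1. The annotation, any scaling between libraries and the use of strand are not given in the sources used here.

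Groups were taken from the labels. Log2(FPKM + 1) of the deposited values entered lmFit and eBayes (trend on) of limma 3.58.1 under R 4.3.3, with the libraries of the 2 groups compared and genes averaging 1 FPKM or more, with thresholds of an FDR of 0.01 for ABCs and 0.05 between FO B groups and no fold threshold. The step was tested on simulated data, with changes set only in genes of higher level and scored at an FDR of 0.05. That test thus does not cover low genes such as Tcf7 and Lef1, or the threshold of 0.01. Exact permutation tests used all 20 orders. Whole reads were recovered from FPKM steps within 0.02 reads, and depth was approximated from 923 genes. Intervals cover counting error only. Other steps used Python 3.11.15, numpy 2.4.6, pandas 2.3.3, scipy 1.17.1 and matplotlib 3.10.9.

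The 8 genes and the lists were chosen with earlier results of these data known. Named genes were the 8 genes, up to 3 called genes per list and direction with the largest change in ABCs against aged FO B cells, every called paralog, the leading and defining genes of marker lists, and the 3 genes nearest in pattern to each called gene. Some genes are not reported here. Alternatives were other pseudocounts and filters, quantile and TPM scaling, no trend, all 9 libraries, the replicate block and leaving out each library.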

Additional observations from a re-analysis of the deposited data

How the results depend on the processing

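Satb1, Ets1, Lef1 and Tcf7 kept their direction and their side of the threshold in both comparisons of ABCs under every alternative that tested them, with limma FDRs of at most 0.00139, 0.00743, 0.007 and 0.00775 against aged FO B cells. In both comparisons Tcf7 and Lef1 had passed the main filter only through the group in which they were high. A mean of at least 5 FPKM left Tcf7 and Lef1 untested, so that 2 of the 8 genes were called there. Against aged FO B cells, Foxp1 also passed with quantile normalization (FDR 0.0091) and with all 9 libraries (0.00323), and Foxo1 passed only with all 9 libraries (0.00779). Against young FO B cells, no filter, no trend and the replicate block each ended the calls of Foxo1 and Foxp1, at limma FDRs of 0.0128 to 0.0173. Satb1 between FO B groups had a log2 fold change of -0.05, which ranged from -0.119 to 0.011 with 1 library left out, the latter without the second aged FO B library. Over all genes, 2072 were called against aged FO B cells, and 976 to 2124 with 1 library left out, with the lower numbers without aged FO B library 1, 2 or 3 (976, 1192, 1033) or ABC library 1 (1310). Between FO B groups 47 genes were called, against 15 with no filter, 20 with all 9 libraries, 30 with no trend and 19 to 69 with 1 library left out (21 and 23 without young library 1 or 2, 19 without aged library 1). Against young FO B cells 2465 were called, against 1509 with the replicate block and 1286 to 2680 with 1 library left out (1286, 1320 and 1396 without young library 1, 2 or 3). The cause was not tested. After the mean of each gene in its group was subtracted, same-numbered ABC and aged FO B libraries correlated at 0.0845, -0.019 and 0.108. Pairs with different numbers correlated at -0.108 to 0.0589. The labels state no pairing, so the replicate numbers were not taken as one. With the replicate block 4 of the 8 genes were called against either FO B group and 0 between FO B groups. All named genes of the related lists kept their direction, and the calls of Gsk3a, Rnf43, Tle3, Csnk1a1, Sgk3, Gadd45a, S1pr1, Rbl2 and Fbxw7 were lost under 3 to 10 of the alternatives.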
